A study of Cricetulus griseus with 9 samples.

Results

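Hif1a and Vegfa were followed at the transcript level in MI5-4 cells, a subline of Chinese hamster ovary (CHO) cells. The members were the rows of the deposited expression table that carry these symbols, 2 of 6753 listed genes, and each symbol had a single row. The 9 libraries formed 3 groups of 3. The WTHK2 group was MI5-4 cells labelled as expressing wild-type HK2, the LAC group was empty-vector cells given 10 mM sodium lactate for 24 h, and the EV group was cells with the empty vector, which the study describes as lacking hexokinase. All were grown in the same serum-containing medium at 1 glucose concentration. MI5-4 is a single cultured line, and the labels give neither the oxygen tension during culture nor the origin of the replicates. Where these came from 1 culture, the tests see technical spread alone.

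Hif1a codes for the oxygen-regulated alpha subunit of hypoxia-inducible factor 1 (HIF-1). With oxygen present, prolyl hydroxylases (Egln family) mark the protein, the von Hippel-Lindau ubiquitin ligase binds the mark, and the proteasome degrades it. In hypoxia the subunit persists, pairs with Arnt and activates genes of glycolysis, angiogenesis and matrix, among them Vegfa. Vegfa codes for the secreted vascular endothelial growth factor A, which acts on endothelial receptors Kdr and Flt1 with neuropilins as co-receptors. Most control of the HIF-1 alpha subunit is at the protein level, which RNA sequencing does not measure. Vegfa also takes input from other factors, among them Sp1 and Atf4.

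The values were normalized CPM, read counts divided by an effective library size that the authors set and that the step between values placed at 18050959 to 26238659 reads. The listed genes summed to 80.3% to 81.4% of the total the unit implies. Fold changes are given on the scale log2(CPM + 1), from 1 limma model of the 9 libraries, and understate changes of low genes. A gene was called higher or lower where its p, adjusted by Benjamini-Hochberg across the 6753 genes, was under 0.05. Hk2, the gene the construct is meant to supply, did not follow the label, and whether reads from the construct would be counted in its row is not given. It stood at 65.3 ± 1.33 CPM in the libraries labelled WTHK2, 67.8 ± 2.92 in LAC and 67.3 ± 2.11 in EV (SD, n = 3 each). The WTHK2 libraries differed from EV by -0.044 on the log2 scale (SE 0.054, limma adjusted p = 0.522), so each direction below for libraries labelled WTHK2 rests on the label. Of 9 endothelial and 6 leukocyte marker genes, 0 were among the listed genes.

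Hif1a was lower in both other groups than in EV, and Vegfa split them: it was higher in LAC and lower in the libraries labelled WTHK2. Against EV these changes lay between -18.4% and 21.8%.

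**Figure D1:**
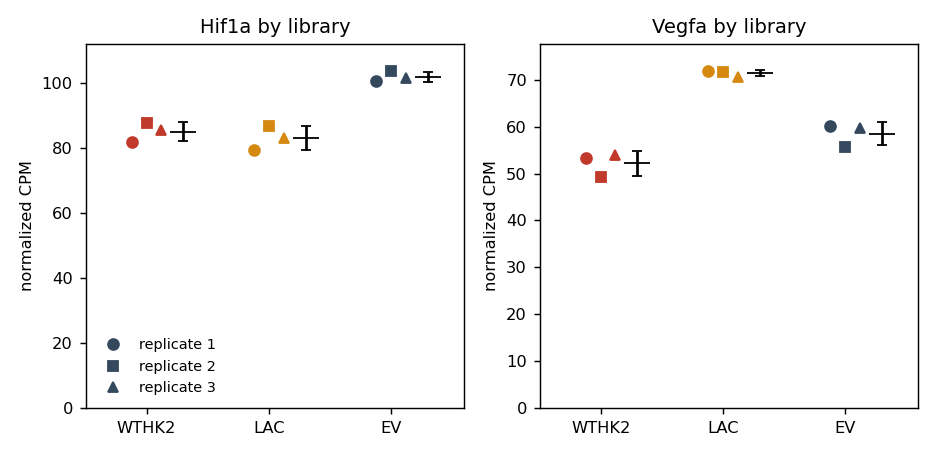
Normalized CPM of Hif1a (left) and Vegfa (right) in each library, with symbols for the replicate number and black bars for the mean ± SD of 3 libraries. Hif1a sits at 79.5 to 87.7 CPM in the 6 WTHK2 and LAC libraries and above 100 in EV, and Vegfa is highest in LAC, at 70.7 to 71.9 CPM.

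Hif1a had 81.8, 87.7 and 85.4 CPM in WTHK2 replicates 1 to 3, 79.5, 86.7 and 82.9 CPM in LAC, and 100.7, 103.7 and 101.5 CPM in EV. Every library of both other groups lay below every EV library, while WTHK2 and LAC overlapped. The means were 85.0 ± 2.98 CPM in WTHK2, 83.1 ± 3.62 in LAC and 102.0 ± 1.55 in EV (SD, n = 3 each). Against EV, Hif1a fell in the libraries labelled WTHK2 with a log2 fold change of -0.26 (SE 0.049, 95% interval -0.36 to -0.16, limma adjusted p = 2.71e-04), a change of -16.5%. In LAC it fell with a log2 fold change of -0.29 (SE 0.049, 95% interval -0.40 to -0.19, limma adjusted p = 7.91e-05), a change of -18.4%. Both comparisons used the same EV libraries. Between WTHK2 and LAC the difference of 0.033 did not pass (SE 0.049, limma adjusted p = 0.709), with an interval of -0.069 to 0.14 that bounds it without showing equality. In order of level, LAC and WTHK2 at the low end did not differ beyond their spread, and EV stood above both.

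Such falls were common in the table. Against EV, 25.4% of all genes were called lower and 21.0% higher in the libraries labelled WTHK2, and 27.1% lower and 22.4% higher in LAC. The excess of lower genes depended on the scaling. With libraries rescaled to 1 common median, 1364 genes were lower and 1834 higher in WTHK2 (1714 and 1417 as deposited), and 1452 were lower and 2058 higher in LAC (1829 and 1512 as deposited). The 3 libraries lay wholly below EV for 30.5% of genes in WTHK2 and for 30.8% in LAC. Hif1a ranked 740th and 709th from the lowest log2 fold change of 6753 genes in these comparisons. Between WTHK2 and LAC it ranked 4080th from the lowest, near the middle of the table.

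**Figure D2:**
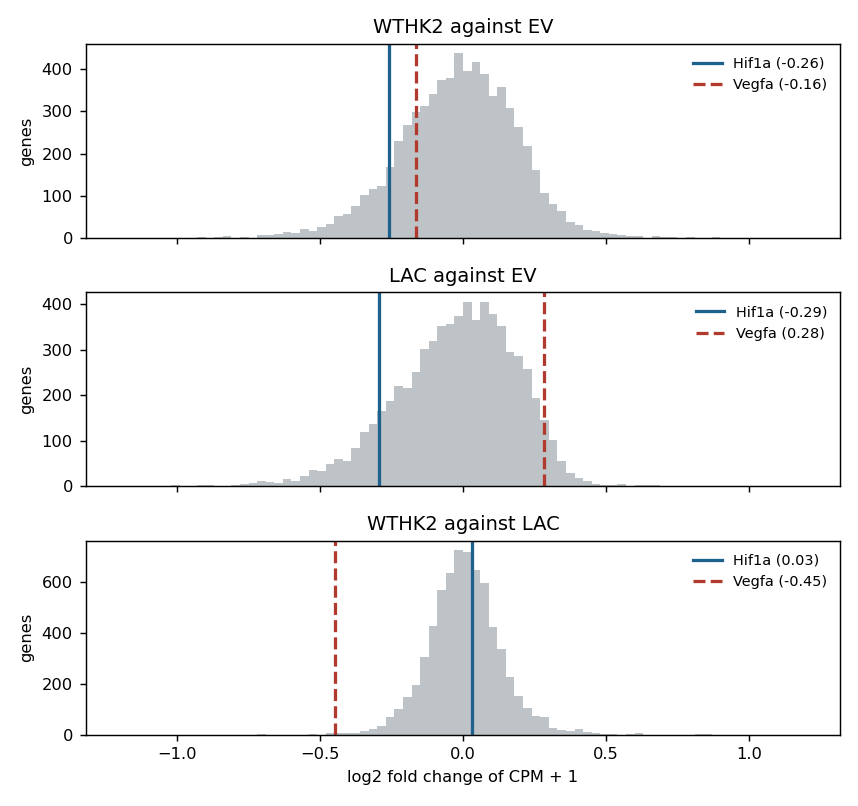
Histograms of the log2 fold change of CPM plus 1 over 6753 genes in each comparison, with values beyond 1.2 in size drawn in the end bars, and lines at Hif1a (solid) and Vegfa (dashed). Hif1a lies in the lower shoulder against EV (-0.26 and -0.29) and near 0 between WTHK2 and LAC. Vegfa lies toward opposite sides against EV (-0.16 in WTHK2, 0.28 in LAC) and in the far lower tail between WTHK2 and LAC (-0.45).

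Vegfa had 53.3, 49.2 and 53.9 CPM in WTHK2 replicates 1 to 3, 71.9, 71.6 and 70.7 CPM in LAC, and 60.1, 55.6 and 59.7 CPM in EV. The 3 groups did not overlap, with LAC at the top, EV between and WTHK2 at the bottom. The narrowest gap was between 53.9 CPM in WTHK2 and 55.6 CPM in EV. The means were 52.1 ± 2.56 CPM in WTHK2, 71.4 ± 0.649 in LAC and 58.5 ± 2.48 in EV (SD, n = 3 each).

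In LAC, Vegfa rose against EV by a log2 fold change of 0.28 (SE 0.057, 95% interval 0.17 to 0.40, limma adjusted p = 4.00e-04), a change of 21.8%. It ranked 310th from the highest of 6753 genes in that comparison, where the libraries lay wholly above EV for 27.0% of genes. The call held in the 21 alternatives run, with log2 fold changes of 0.25 to 0.33.

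In the libraries labelled WTHK2, Vegfa fell against EV with a log2 fold change of -0.16 (SE 0.057, 95% interval -0.28 to -0.045, limma adjusted p = 0.0238), a change of -10.7%. This call was not secure, and its limma adjusted p of 0.0238 does not pass the stricter limit of 0.01. It was lost when libraries were rescaled to 1 common median (-0.13, adjusted p = 0.0737), without EV replicate 1 (-0.14, adjusted p = 0.0912), without EV replicate 3 (-0.15, adjusted p = 0.0788) and without WTHK2 replicate 2 (-0.12, adjusted p = 0.120). The direction was the same in each of them. Vegfa ranked 1505th from the lowest of all genes in this comparison.

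The direct comparison of WTHK2 with LAC gave the largest of the Vegfa differences, a log2 fold change of -0.45 (SE 0.057, 95% interval -0.56 to -0.33, limma adjusted p = 1.11e-05), or -26.6%. Vegfa ranked 20th from the lowest of 6753 genes there. In this comparison 7.76% of genes were called lower, 8.37% were called higher, and the WTHK2 libraries lay wholly below LAC for 14.5%. The call held in the 21 alternatives run, at -0.47 to -0.41.

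Reads behind the values numbered 1477 to 2532 per library for Hif1a and 963 to 1502 for Vegfa, read off the step of each library. Counting error alone then gives a standard deviation of 2.602% to 1.987% for Hif1a and 3.22% to 2.58% for Vegfa. The coefficient of variation of Hif1a was 3.504% in WTHK2, 4.36% in LAC and 1.52% in EV. That of Vegfa was 4.91% in WTHK2, 0.910% in LAC and 4.24% in EV. The 3 LAC values of Vegfa therefore lay closer together than counting error gives on average, and the fit took its error from all 3 groups and from genes of like level.

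The balance of the transcripts was measured as the per-library log2 value of Vegfa minus that of Hif1a, set to 0 at the EV mean. It was 0.18, -0.029 and 0.14 in WTHK2 replicates 1 to 3, 0.65, 0.52 and 0.56 in LAC, and 0.056, -0.094 and 0.038 in EV. LAC stood apart from both other groups, and WTHK2 and EV overlapped. The LAC mean exceeded that of EV by 0.58, and the WTHK2 mean was below that of LAC by 0.48 (a difference of -0.48). Each had a two-sided exact permutation p of 0.1, the smallest that 3 against 3 allows, and an adjusted p of 0.15 over the 3 comparisons made. Between WTHK2 and EV the difference was 0.098 (exact permutation p = 0.3, adjusted p = 0.3).

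Mitochondrially encoded transcripts moved with the groups. All 4 listed were called higher in WTHK2 and in LAC than in EV, beside 21.0% and 22.4% of all genes. The COX1 call was lost in both under quantile normalization. That setting gave COX1 the same value in the groups compared (differences of 1.8e-15), so it cannot test this gene. Their median log2 value above the EV mean was 0.73, 0.45 and 0.40 in WTHK2 replicates 1 to 3 and 0.80, 0.52 and 0.45 in LAC. The first replicate of each group, highest in these transcripts, was also its lowest in Hif1a. Without both first replicates the fall of Hif1a was -0.23 in WTHK2 (limma adjusted p = 4.36e-04) and -0.26 in LAC (limma adjusted p = 1.06e-04).

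Genes for very long proteins moved too, in a list written by hand with knowledge of earlier results. Of 58 listed, 50 were called lower and 1 higher in WTHK2, beside 25.4% and 21.0% of all genes. In LAC 52 were lower and 1 higher, beside 27.1% and 22.4% of all genes. The medians were -0.30 in WTHK2 and -0.29 in LAC. The log2 fold change of Hif1a lay inside that list's range, with 32 of the 58 below it in WTHK2 and 28 in LAC. In LAC, Vegfa was higher beside higher mitochondrial transcripts and lower long genes, and in WTHK2 it was lower beside the same trends. Without both first replicates its log2 fold change was -0.18 in WTHK2 (limma adjusted p = 0.0207) and 0.28 in LAC (limma adjusted p = 5.53e-04). The part of these trends in either member's result was not tested.

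Among the partners of Hif1a, Ep300 was lower in both groups, and Epas1 and Arnt were called lower in LAC. The difference between WTHK2 and LAC passed for none of the listed partners, except that Arnt was called higher in WTHK2 with the replicate number as a block (0.16, limma adjusted p = 0.0481). Of 7 genes written down for HIF subunits and coactivators, 5 were listed, Hif1a included. In WTHK2 2 were lower and 0 higher, beside 25.4% and 21.0% of all genes. The median was -0.10 on the log2 scale, against -0.0082 for all genes. In LAC 4 were lower and 0 higher, beside 27.1% and 22.4% of all genes, the median being -0.27, against -0.0035 for all genes.

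Ep300, an acetyltransferase that HIF-1 recruits as coactivator, had 121.5 ± 6.38 CPM in WTHK2, 116.8 ± 4.36 in LAC and 144.7 ± 1.52 in EV. It fell against EV by log2 fold changes of -0.25 in WTHK2 (limma adjusted p = 2.19e-04) and -0.31 in LAC (limma adjusted p = 2.82e-05).

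Arnt, the constitutive partner that dimerises with the alpha subunits, had 52.6 ± 1.34 CPM in WTHK2, 47.0 ± 3.32 in LAC and 56.6 ± 1.46 in EV. It fell in LAC with a log2 fold change of -0.27 (SE 0.062, limma adjusted p = 0.00145) and did not pass in WTHK2 (-0.10, adjusted p = 0.174). Epas1, the HIF-2 alpha subunit, had 43.7 ± 1.17 CPM in WTHK2, 39.3 ± 2.40 in LAC and 46.3 ± 0.865 in EV. It fell in LAC with a log2 fold change of -0.23 (SE 0.063, limma adjusted p = 0.00461) and was at -0.081 in WTHK2 (limma adjusted p = 0.305). Crebbp, the paralog of Ep300, passed in neither, at 0.034 in WTHK2 and -0.097 in LAC. All alpha subunits and the partner that were listed were therefore lower in LAC than in EV.

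Of 18 symbols written for oxygen sensing and turnover of the alpha subunit, older symbols included, 9 genes were listed. In WTHK2 2 were higher and 1 lower, beside 21.0% and 25.4% of all genes. In LAC 4 were higher and 1 lower, beside 22.4% and 27.1% of all genes. Rescaling to 1 common median gave 4 higher in WTHK2, Egln2 and Rack1 among them. The prolyl hydroxylases did not pass: Egln1, the main oxygen sensor, was at 0.043 in WTHK2 and -0.052 in LAC, and Egln2 at 0.13 and 0.088. Cul2, the scaffold of the von Hippel-Lindau ligase, was at 0.057 in WTHK2 and -0.071 in LAC, neither passing.

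Smaller subunits of that ligase were higher. Elob, elongin B, had 131.5 ± 2.90 CPM in WTHK2, 142.6 ± 2.93 in LAC and 113.2 ± 3.34 in EV, and rose by 0.21 in WTHK2 (limma adjusted p = 4.33e-04) and 0.33 in LAC (limma adjusted p = 5.80e-06). Rbx1, its RING subunit, rose by 0.22 in WTHK2 (limma adjusted p = 0.00116) and 0.20 in LAC (limma adjusted p = 0.00229). Both code for short proteins and serve other cullin ligases or elongation complexes as well.

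In LAC, Siah2, a ubiquitin ligase that targets prolyl hydroxylases, rose by 0.34 (limma adjusted p = 0.00250), to 29.3 ± 0.996 CPM against 23.1 ± 2.11 in EV. Usp20, a deubiquitinase reported to act on the HIF-1 alpha protein, rose by 0.28 (limma adjusted p = 0.00517). Neither passed in WTHK2, where Siah2 was at 0.093 and Usp20 at 0.092. Between WTHK2 and LAC neither passed, with Siah2 at -0.24 (limma adjusted p = 0.0524) and Usp20 at -0.19 (limma adjusted p = 0.106). There Siah2 was called lower in WTHK2 in 7 of 20 alternatives and Usp20 in 2 of 20. Hsp90aa1, a chaperone that stabilises the alpha subunit, fell in both, by log2 fold changes of -0.17 in WTHK2 and -0.13 in LAC, and the LAC call was lost without LAC replicate 1 (limma adjusted p = 0.0608). Rack1, which promotes oxygen-independent turnover, passed in neither with all libraries as deposited, at 0.069 in WTHK2 and 0.073 in LAC. It was called higher in WTHK2 without WTHK2 replicate 1 (0.11, limma adjusted p = 0.0183), and in LAC on rescaling to 1 common median (0.11, limma adjusted p = 0.0292).

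**Figure D3:**
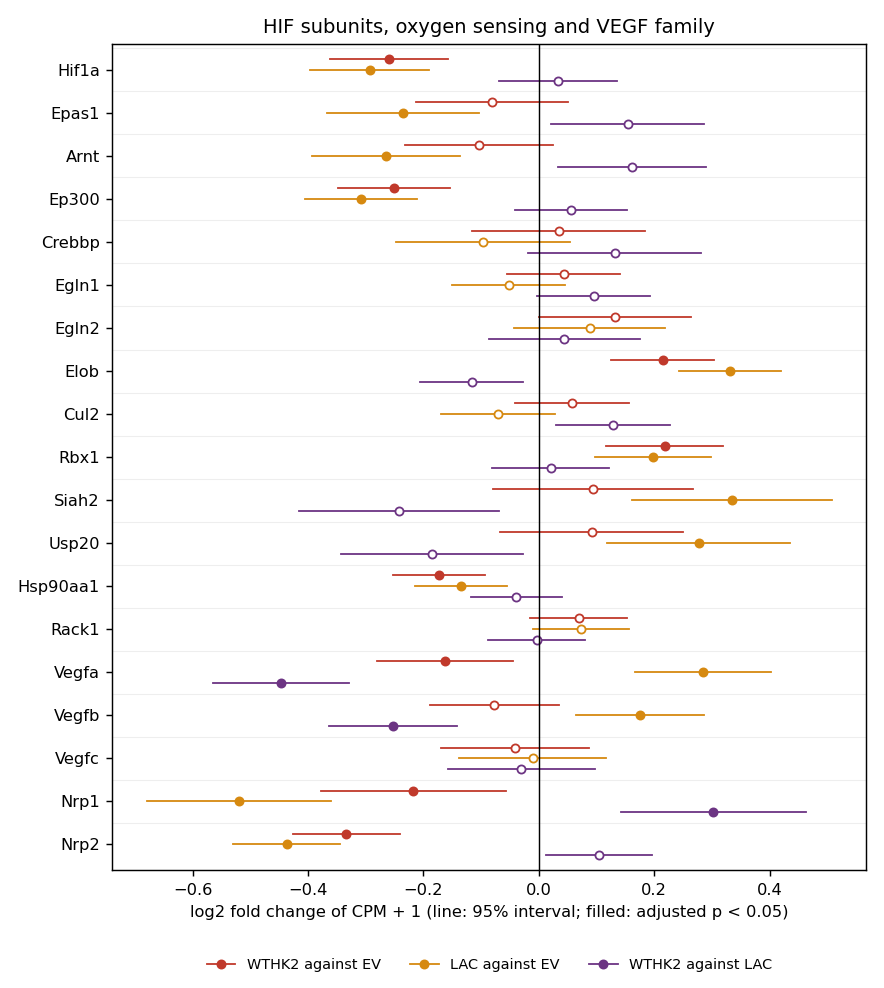
Log2 fold changes of CPM plus 1 with 95% intervals for the listed HIF subunits and coactivators, oxygen-sensing genes and VEGF family, in WTHK2 against EV, LAC against EV and WTHK2 against LAC. Filled points have an adjusted p under 0.05. Nrp1, Nrp2, Hif1a and Ep300 lie left of 0 in both comparisons with EV, Vegfa and Vegfb lie right of 0 in LAC alone, and the widest separation of WTHK2 from LAC in this plot is that of Vegfa (-0.45).

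Among the VEGF family, the calls on ligands and co-receptors went different ways in LAC against EV, while every call in WTHK2 against EV was lower. Of 11 symbols written, 5 genes were listed: the ligands Vegfa, Vegfb and Vegfc and the neuropilins Nrp1 and Nrp2. The signalling receptors Kdr, Flt1 and Flt4 were not among the listed genes. In WTHK2 3 were lower and 0 higher, beside 25.4% and 21.0% of all genes, and without WTHK2 replicate 2 only 1 was lower. In LAC 2 were higher, both ligands, and 2 were lower, both co-receptors, beside 22.4% and 27.1% of all genes.

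Vegfb, a ligand of Flt1, had 63.1, 64.9 and 64.6 CPM in WTHK2, 75.05, 73.47 and 81.66 CPM in LAC, and 66.7, 69.0 and 67.5 CPM in EV. Like Vegfa, it was highest in LAC with no overlap. It rose in LAC by 0.18 (SE 0.053, limma adjusted p = 0.0102), a call lost without LAC replicate 3 (adjusted p = 0.0697), and was at -0.077 in WTHK2 (limma adjusted p = 0.246). Between WTHK2 and LAC it was lower in WTHK2, at -0.25 (SE 0.053, limma adjusted p = 0.00251). Vegfc, a ligand of Flt4 known for lymphatic growth, had 42.4 ± 0.680 CPM in WTHK2, 43.4 ± 2.21 in LAC and 43.7 ± 0.408 in EV, and passed in no comparison, with intervals against EV of -0.17 to 0.087 in WTHK2 and -0.14 to 0.12 in LAC.

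Nrp1, co-receptor for Vegfa and for semaphorins, had 63.4, 64.6 and 71.3 CPM in WTHK2, 48.0, 62.1 and 51.7 CPM in LAC, and 75.2, 83.7 and 73.4 CPM in EV. The 3 groups did not overlap, with LAC lowest. It fell in LAC with a log2 fold change of -0.52 (SE 0.077, limma adjusted p = 2.22e-05). In WTHK2 it fell with -0.22 (SE 0.077, limma adjusted p = 0.0257), and this call was lost with quantile normalization, without the variance trend, and without EV replicate 2, WTHK2 replicate 1 or WTHK2 replicate 2 (adjusted p = 0.0574 to 0.146). WTHK2 exceeded LAC by 0.30 (SE 0.077, limma adjusted p = 0.00984), lost without WTHK2 replicate 3, LAC replicate 1 or LAC replicate 3 (adjusted p = 0.0547 to 0.0677).

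Nrp2, co-receptor for Vegfc, had 148.3 ± 2.75 CPM in WTHK2, 138.0 ± 5.48 in LAC and 187.2 ± 8.53 in EV. It fell with log2 fold changes of -0.33 in WTHK2 (SE 0.044, limma adjusted p = 6.55e-06) and -0.44 in LAC (SE 0.044, limma adjusted p = 6.59e-07). Between WTHK2 and LAC it did not pass (0.10, adjusted p = 0.120), but was called higher in WTHK2 without LAC replicate 2 (0.14, limma adjusted p = 0.0449).

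HIF target genes other than Vegfa were called in both directions in each comparison. Of 51 symbols written, 24 genes were listed. In WTHK2 4 were higher and 6 lower (2 lower among targets of at least 50 CPM), shares near the 21.0% higher and 25.4% lower over all genes, and the median was -0.010 on the log2 scale, against -0.0082 for all genes. That median lay between -0.033 and 0.025 over the alternatives, so its sign is not fixed, and the count of higher targets was 2 without EV replicate 1, EV replicate 2, WTHK2 replicate 1, WTHK2 replicate 3 or LAC replicate 3, and without the variance trend. In LAC 9 were higher and 4 lower, beside 22.4% and 27.1% of all genes, the median being 0.0091 against -0.0035 for all genes. In WTHK2 against LAC 2 were higher and 8 lower (5 lower among targets of at least 50 CPM), beside 8.37% and 7.76% of all genes, the median being -0.093 against 0.0041 for all genes.

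Of the 9 targets higher in LAC, 6 belonged to glucose uptake and glycolysis. Of 9 listed genes of that kind, 6 were higher and 2 lower in LAC, beside 22.4% and 27.1% of all genes, the median being 0.18. In WTHK2 2 were higher and 2 lower, beside 21.0% and 25.4% of all genes, the median being -0.031. This division of the list was made after the values were seen. PGK1, one of the 6, rose by 0.12 in LAC, a call lost in 4 of 21 alternatives, quantile normalization among them. The 2 lower in LAC were Hk1 and Pfkfb3. Pgam1, phosphoglycerate mutase, had 596.1, 637.7 and 628.7 CPM in WTHK2, 778.1, 750.6 and 785.0 CPM in LAC, and 649.8, 635.3 and 636.5 CPM in EV. Only LAC stood apart. Pgam1 rose by 0.27 in LAC (limma adjusted p = 4.99e-06), was at -0.046 in WTHK2 (limma adjusted p = 0.282), and differed between them by -0.31 (limma adjusted p = 1.40e-06).

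Aldoa, an aldolase, rose by 0.28 in LAC (limma adjusted p = 1.09e-05) and 0.18 in WTHK2. GPI, glucose-6-phosphate isomerase, rose by 0.21 and Pfkl, a phosphofructokinase, by 0.18 in LAC, with 0.050 and -0.031 in WTHK2, neither passing. P4ha1, a collagen prolyl hydroxylase, and Jmjd6, a dioxygenase, rose by 0.21 and 0.22 in LAC, and were at -0.034 and 0.010 in WTHK2, again not passing. Aldoa did not pass between WTHK2 and LAC (-0.10, limma adjusted p = 0.0759), but was called lower in WTHK2 with the replicate block (adjusted p = 0.0290) and without LAC replicate 2 (-0.13, adjusted p = 0.0188). The others were also lower in WTHK2 than in LAC, as Vegfa was, at -0.16 for GPI, -0.21 for Pfkl, -0.31 for Pgam1, -0.25 for P4ha1 and -0.21 for Jmjd6. The Jmjd6 call there was lost without LAC replicate 3 (limma adjusted p = 0.0575).

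Other targets fell with Hif1a in both groups. Pfkfb3, an enzyme that activates phosphofructokinase through its product, fell by log2 fold changes of -0.61 in WTHK2 and -0.62 in LAC, and Bnip3l, a mitophagy receptor, by -0.37 and -0.30. The listed target Bnip3 did not fall with Bnip3l. Bnip3 rose in LAC by 0.22 (limma adjusted p = 0.0410), a call lost in 3 of 20 alternatives, and was at 0.051 in WTHK2, not passing. Hk1, a second listed hexokinase beside Hk2, was at -0.18 in WTHK2 (limma adjusted p = 3.64e-04) and -0.097 in LAC (limma adjusted p = 0.0277). Its LAC call was lost in 5 of 21 alternatives, rescaling to 1 common median among them. A further pair was lower in the libraries labelled WTHK2 and did not pass in LAC with all libraries. Vldlr, a lipoprotein receptor, was at -0.47 in WTHK2 (limma adjusted p = 5.52e-06) and -0.055 in LAC, and Stc2, a stanniocalcin, at -0.45 and -0.14. Stc2 was called lower in LAC too without LAC replicate 1 (-0.21, limma adjusted p = 0.0256) and without both first replicates (adjusted p = 0.0151). Both were also lower in WTHK2 than in LAC, at -0.42 for Vldlr and -0.31 for Stc2.

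Hmox1, heme oxygenase, rose in WTHK2 by 0.25 (limma adjusted p = 4.56e-04) and was at -0.012 in LAC. Tfrc, the transferrin receptor, fell in LAC with -0.30 and was at 0.034 in WTHK2. Both were higher in WTHK2 than in LAC, at 0.27 for Hmox1 and 0.33 for Tfrc. Slc2a1, the glucose transporter GLUT1, rose by 0.21 in LAC and 0.15 in WTHK2, where the call (limma adjusted p = 0.0427) was lost in 8 of 21 alternatives.

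**Figure D4:**
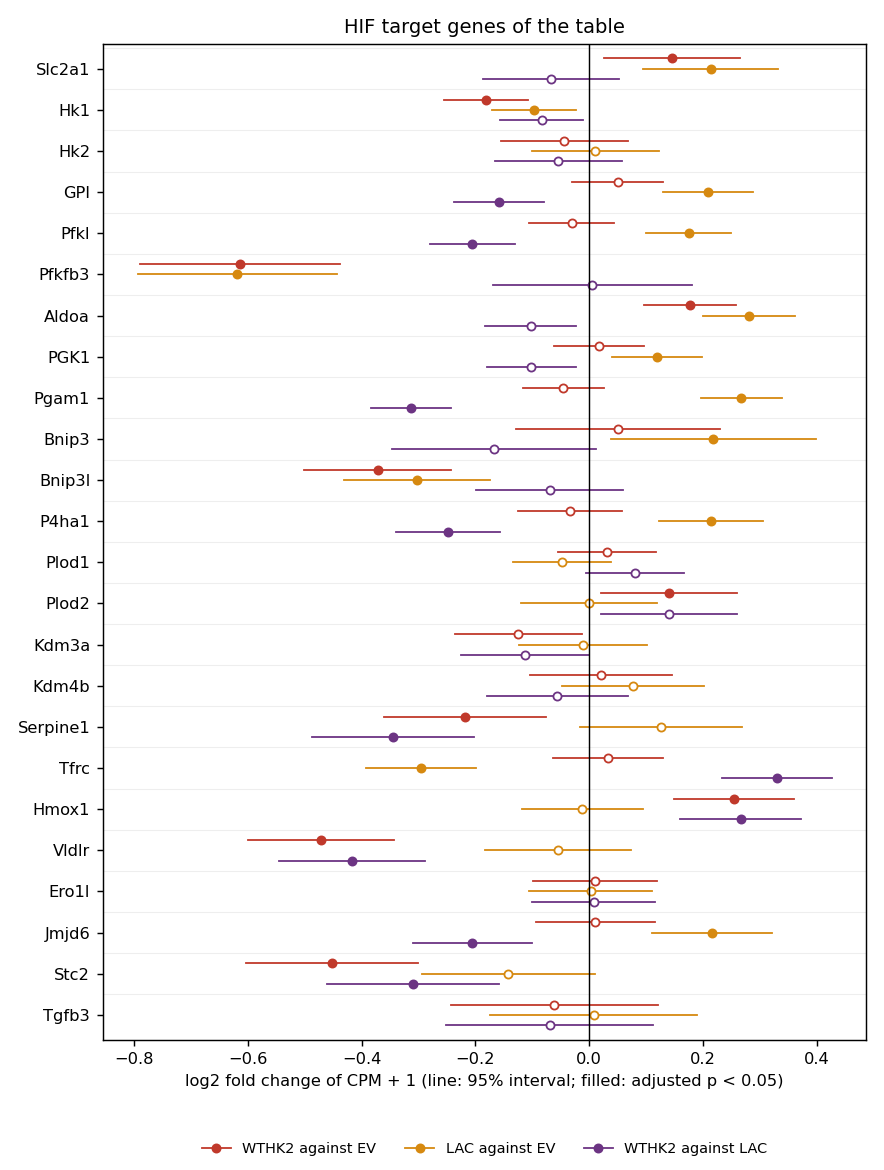
Log2 fold changes of CPM plus 1 with 95% intervals for the 24 listed HIF target genes in WTHK2 against EV, LAC against EV and WTHK2 against LAC. Filled points have an adjusted p under 0.05. The points spread to both sides of 0 in each comparison, from -0.61 for Pfkfb3 to 0.25 for Hmox1 in WTHK2 and from -0.62 for Pfkfb3 to 0.28 for Aldoa in LAC.

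Transcription factors known to act on the Vegfa gene did not move together. Of 9 written, 7 were listed. In WTHK2 2 were higher and 4 lower, beside 21.0% and 25.4% of all genes. In LAC 2 were higher and 4 lower, beside 22.4% and 27.1% of all genes. Atf4, of the amino acid and stress response, had 314.3, 290.1 and 284.9 CPM in WTHK2, 365.5, 370.7 and 384.6 CPM in LAC, and 337.2, 337.5 and 324.0 CPM in EV. Its groups were ordered as those of Vegfa, with no overlap. It fell in WTHK2 with -0.17 (limma adjusted p = 0.00189), rose in LAC by 0.17 (limma adjusted p = 0.00189), and differed between them by -0.33 (limma adjusted p = 4.87e-06).

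Sp1, which binds GC-rich promoters, fell alike by log2 fold changes of -0.44 in WTHK2 and -0.44 in LAC, and Ets1 by -0.38 and -0.45. Egr1, an immediate early factor, rose in both, by 1.06 in WTHK2 and 0.81 in LAC. Stat3 was lower in LAC, at -0.35 (limma adjusted p = 6.95e-04), and was at -0.0097 in WTHK2. Ctnnb1, beta-catenin, was at -0.095 in WTHK2 and -0.12 in LAC, and both of its calls were lost on rescaling to 1 common median, that in WTHK2 in 6 of 21 alternatives, among them those without EV replicate 1, EV replicate 2 or WTHK2 replicate 1. Tfap2a was at 0.16 in WTHK2, a call lost without EV replicate 1 or WTHK2 replicate 1, and at -0.024 in LAC.

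Genes of the mTOR and NF-kB pathways were mostly lower. These pathways raise synthesis of Hif1a transcript or protein. The list pools their activators with the inhibitors Tsc1 and Tsc2 and the repressor Eif4ebp1, so its counts give no direction of input. Of 15 written, 11 were listed. In WTHK2 8 were lower and 0 higher, beside 25.4% and 21.0% of all genes, with a median of -0.22 against -0.0082 for all genes. The count lower was 6 to 8 over the alternatives that kept all genes. Akt1 and Tsc2 each lost the WTHK2 call in 5 of 21 alternatives, rescaling to 1 common median among them. In LAC 7 were lower and 1 higher, beside 27.1% and 22.4% of all genes, the median being -0.18 against -0.0035. Rela, the NF-kB subunit p65, had 332.5 ± 16.3 CPM in WTHK2, 390.5 ± 15.0 in LAC and 442.0 ± 4.23 in EV, and fell with -0.41 in WTHK2 (limma adjusted p = 1.26e-07) and -0.18 in LAC (limma adjusted p = 9.19e-04). Nfkb1, the p105 precursor subunit, fell with -0.28 in WTHK2 and -0.25 in LAC. Chuk, of the same list, fell with -0.31 in WTHK2 (limma adjusted p = 1.48e-04) and did not pass in LAC (-0.12, adjusted p = 0.0788). Mtor fell with -0.31 in each, Rptor, its complex 1 partner, with -0.22 and -0.19, and Tsc1, an upstream inhibitor, with -0.44 and -0.50. Eif4ebp1, a translation repressor that mTOR inactivates, rose in LAC by 0.15. Mtor is itself in the list of genes for long proteins, whose medians were -0.30 and -0.29.

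Other secreted factors that promote or inhibit vessel growth were counted together beside Vegfa, so the counts give no direction for vessel growth. Of 15 symbols written, 5 genes were listed. In WTHK2 4 were higher and 0 lower, beside 21.0% and 25.4% of all genes. In LAC 4 were higher and 1 lower, beside 22.4% and 27.1% of all genes. Thbs1, thrombospondin 1, an inhibitor of angiogenesis, had 219.2, 213.5 and 232.3 CPM in WTHK2, 118.6, 137.1 and 115.3 CPM in LAC, and 156.4, 152.1 and 152.4 CPM in EV. Its groups ran in the opposite order to those of Vegfa, without overlap. It rose in WTHK2 by 0.53 (limma adjusted p = 2.45e-07), fell in LAC with -0.32 (limma adjusted p = 8.18e-05), and was higher in WTHK2 than in LAC by 0.84 (limma adjusted p = 1.30e-09). Ccn2 and Ccn1, matricellular proteins, rose by 0.31 and 0.25 in WTHK2 and by 0.45 and 0.37 in LAC. Adamts1, a protease, rose by 0.21 and 0.24. Pdgfa, a growth factor, rose in LAC by 0.20 (limma adjusted p = 0.0213), a call lost without EV replicate 1, EV replicate 2 or LAC replicate 3.

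Profiles nearest to each member were sought by the root mean square difference of log2(CPM + 1), each gene centred on its mean over the 9 libraries. For Hif1a the nearest were Trim33 at 0.016, Dennd5a at 0.021, Klhl5 at 0.027, Ptpn13 at 0.027 and Fam126a at 0.033, against a median of 0.16 over the other 6752 genes. Vegfa lay at 0.26 from Hif1a, farther than that median. For Vegfa the nearest were Clu at 0.057, Tmem132a at 0.059, Ctnnbl1 at 0.071, Ddx27 at 0.071 and Card10 at 0.075, against a median of 0.22. The nearest profile to Hif1a was closer than the nearest to Vegfa.

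Trim33, nearest to Hif1a, had 55.3 ± 2.48 CPM in WTHK2, 53.8 ± 3.02 in LAC and 66.6 ± 0.692 in EV. Clu, nearest to Vegfa, had 957 ± 58.1 CPM in WTHK2, 1245 ± 55.0 in LAC and 1072 ± 44.8 in EV. These are descriptions over 9 libraries that share their groups.

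**Figure D5:**
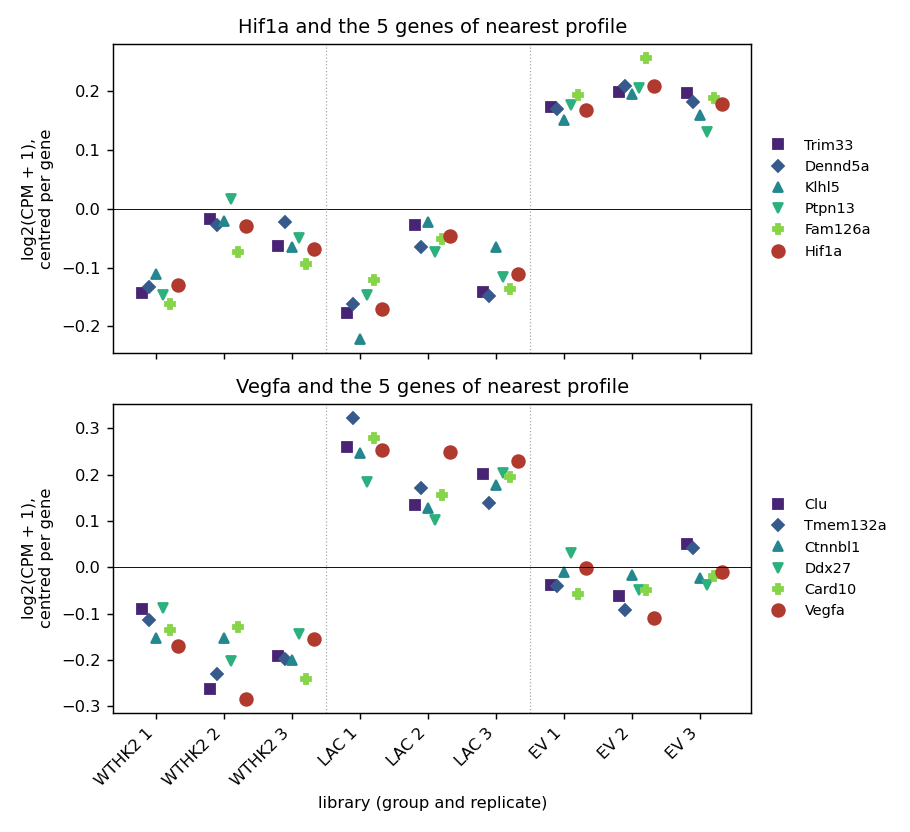
Log2(CPM + 1) centred on each gene's mean, by library, for Hif1a (top) and Vegfa (bottom), each with the 5 genes of nearest profile. In the top panel all 6 genes are highest in the 3 EV libraries, and in the bottom panel all 6 are lowest in WTHK2 and highest in LAC.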

How the data were processed

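RNA from MI5-4 cells was made into mRNA libraries, 3 for each of WTHK2, LAC and EV. Per the labels, the submitters' processing notes name STAR 2.7.0a, featureCounts 2.0.1, edgeR 3.8, FastQC 0.11.8 and cutadapt 1.18. Genome build, annotation, strand setting and any filter on low genes: not given in the sources used here, so no coordinates are printed. The deposited table holds normalized CPM, scaled by the authors, for 6753 genes in 9 libraries. Within 0.01 of a read, all values were whole multiples of 1 step in their library, which gave reads and library sizes.

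The members and gene lists were chosen with earlier results of these data known. Genes averaging under 1 CPM were to be dropped (0 were), values were put on log2(CPM + 1), and limma 3.58.1 in R 4.3.3 fitted all genes with a variance trend, no covariates and two-sided tests. The fit was tested on simulated data. Text names both members, Hk2, every listed HIF subunit, oxygen-sensing and VEGF gene, and the 5 nearest profiles. It also names 2 listed neighbours on each side (by symbol, 6143 of 6753 matched on CriGri-PICRH-1.0). Of each other list, up to 6 members with the smallest adjusted p were to be named. Further list members, most of them HIF targets, were named after their values were seen. Tables used pandas 2.3.3, scipy 1.17.1 and numpy 2.4.6 under Python 3.11.15, and figures matplotlib 3.10.9. Alternatives were pseudocounts of 0.25 and 4, no filter or one at 50 CPM, rescaling to the same median, quantile normalization, 6-library fits, the replicate number as a block, robust empirical Bayes, a fit with no trend, an adjusted p of 0.01 and each library left out. voom on the reads and a fit without both first replicates were added after the data were seen.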

Additional observations from a re-analysis of the deposited data

How the results depend on the processing

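Over 21 alternatives each, Hif1a against EV stayed called lower in WTHK2 (-0.28 to -0.22) and in LAC (-0.32 to -0.25), and its difference between WTHK2 and LAC stayed uncalled (0.0025 to 0.065). Vegfa stayed called in LAC against EV and in WTHK2 against LAC. Its fall in WTHK2 against EV was lost with libraries rescaled to the same median (-0.13) and in 3 of the 9 fits with 1 library left out (-0.14 without EV replicate 1, -0.15 without EV replicate 3, -0.12 without WTHK2 replicate 2), the 9 fits ranging from -0.20 to -0.12. Fits without LAC replicate 1, 2 or 3 could not move this fold change (-0.16 in each) and altered only its error. In each comparison the same holds for libraries of the group not compared. The fit with no filter repeats the main one, since 0 genes were dropped. The cause of the lost call was not tested beyond the smaller shift that rescaling leaves. At an adjusted p under 0.01, genes called higher were 941 in WTHK2 against EV and 998 in LAC against EV, where 0.05 gave 1417 and 1512. In WTHK2 against LAC, 281 were higher and 260 lower at 0.01, where 0.05 gave 565 and 524, and with single libraries left out 333 to 650 were higher and 329 to 629 lower, the lowest without WTHK2 replicate 3.

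Same-numbered libraries deviated together with correlations of -0.0057 to 0.44. As these were not all over 0.1, the main fit did not take the numbers as pairs. Yet 3, 4 and 5 of 6 libraries in the 3 comparisons correlated best with their own number, most in WTHK2 against LAC (correlations of 0.44, 0.25 and 0.073). Whether same-numbered libraries share an origin was not tested. With the replicate number as a block, Hif1a kept -0.26 and -0.29 and Vegfa -0.16, 0.28 and -0.45, no call of either changed, and genes called were 732 higher and 682 lower in WTHK2 against LAC. The planned count models on recovered reads were not run, and voom took their place. Genes below the lowest listed level were not analysed here, and the smallest member count of 963 reads limits single values to about 3.22%.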

Other observations

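Of the nearest listed genes in gene order, Ppp2r5e for Hif1a and Mrpl14 for Vegfa were called against EV. On the assembly CriGri-PICRH-1.0, used only for the order of genes, the nearest listed genes to Hif1a were Snapc1 on one side and Slc38a6 on the other. Snapc1 was at -0.10 in WTHK2 and 0.0040 in LAC, and Slc38a6 at 0.080 and 0.20, none passing, though Slc38a6 in LAC (limma adjusted p = 0.0561) was called higher in 7 of 20 alternatives, the replicate block among them (adjusted p = 0.0404). Of the next listed genes, Ppp2r5e, a phosphatase subunit with 11 genes between it and Hif1a, was lower, with -0.33 in WTHK2 and -0.30 in LAC. TRMT5 passed in neither. Between Vegfa and its listed neighbours lay 4 genes for Mrpl14, 5 for Tmem63b, 19 for Vegfc and 24 for Neil3. Mrpl14, a mitochondrial ribosomal protein, rose by 0.22 in WTHK2, a call lost without WTHK2 replicate 3 (limma adjusted p = 0.0755), and by 0.23 in LAC. Tmem63b, Vegfc and Neil3 passed in neither. Neil3 was called lower in LAC without EV replicate 3 (-0.16, limma adjusted p = 0.0398).

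RNA-binding proteins that act on unstable transcripts were also counted, Vegfa being among their known targets. Of 9 written, 6 were listed, with 2 higher and 1 lower in WTHK2, beside 21.0% and 25.4% of all genes. In LAC 1 was higher and 2 lower, beside 22.4% and 27.1% of all genes. Zfp36l2, a decay factor of AU-rich transcripts, fell with -0.37 in WTHK2 and -0.25 in LAC. Hnrnpl, which binds Vegfa RNA in hypoxia, rose by 0.16 in WTHK2 and was at 0.067 in LAC, where rescaling to 1 common median called it higher (0.11, limma adjusted p = 0.0193). Hnrnpd, another binder of AU-rich transcripts, rose by 0.13 in LAC and by 0.093 in WTHK2, where the call was lost in 7 of 21 alternatives. Elavl1, a stabilising factor, was at -0.15 in LAC, a call lost in 8 of 21 alternatives. Of 11 genes of lactate transport and oxidation, 4 were listed. Bsg, a partner of lactate transporters, rose by 0.16 in WTHK2 and 0.24 in LAC, and Mpc2, of the mitochondrial pyruvate carrier, by 0.25 and 0.26. The lactate transporter Slc16a1 was at -0.089 and -0.043, and Pdha1, of pyruvate dehydrogenase, at -0.042 and -0.089, none passing with all libraries. Slc16a1 was called lower in WTHK2 without WTHK2 replicate 1 (-0.14, limma adjusted p = 0.00643), and Pdha1 in LAC without LAC replicate 2 (-0.13, limma adjusted p = 0.0176).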
